A study of Mus musculus with 3 samples.

Results

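Genes of the insulin-like growth factor (IGF) system were examined in endothelial cells sorted from embryonic mouse kidneys. The system was represented by 10 of 19938 named genes: the ligand gene *Igf1*, the receptor genes *Igf1r* and *Insr*, and the binding protein genes *Igfbp1* to *Igfbp7*. A probe set was taken where the array annotation gave exactly 1 symbol and that symbol was one of these 10, which found 11 of 35557 probe sets, 2 of them for *Insr*. The cells came from CD-1 mouse embryos of 15.5 days post coitum that carried the Tg(TIE2GFP)287Sato transgene. The promoter of *Tek* (the gene of the angiopoietin receptor Tie2) drives green fluorescent protein from it, and cells with GFP were sorted by flow cytometry after trypsin treatment. For each of 3 samples, 4 to 5 kidneys were pooled and hybridized to an array of their own. The samples form 1 group without a treatment or a control group, so no difference between cell types, stages or conditions could be tested. The study describes its samples as independent biological ones, with at least 3 of each type. No label tells if the pools were of different litters, so the p-values here cover the spread among the arrays alone, which may be technical in part.

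IGF1 and IGF2 are small secreted proteins that promote growth and survival, and their main signalling receptor is the tyrosine kinase encoded by *Igf1r*. The related insulin receptor, encoded by *Insr*, binds insulin and also IGF2. Both receptors signal through IRS and Shc adaptors, and the path through IRS leads to PI3 kinase, AKT, mTOR and the FoxO transcription factors. Secreted binding proteins hold most IGF outside cells, and proteases such as PAPP-A release it. In blood vessels the system is known for its part in endothelial growth and migration.

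The deposited values are on a log2 scale. The study removed probe sets of low raw signal with a filter that asked for 100 or more in 3 samples, and 100 is 6.64 in log2 units. The p-value and fold change criteria of the study compared sample types and had no use within 1 group. The filter was set on the raw values of the study. Here its level was applied to the deposited ones, in the main test to the mean of the arrays and not to each array. Each probe set was tested against this level with limma, one-sided in each direction and adjusted over all probe sets, and a gene counted as above if any of its probe sets passed and as below only if all did. Probe sets differ in affinity, so calls against 1 common level, and levels given side by side for genes or lists, are descriptive. No level of a gene was tested against that of another.

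*Tek* lay above the level in all 3 arrays, at 11.12, 10.97 and 10.13 log2 in arrays 1, 2 and 3. Among 18 endothelial markers 16 passed above (88.9%), and 18 with a pooled spread, the same for every probe set in place of its own. By the same tests 41.6% of all named genes were above and 41.6% below (36.0% and 32.5% with the pooled spread). *Pecam1* was at 10.09 ± 0.60, *Cdh5* at 11.08 ± 0.59 and *Kdr* at 9.89 ± 0.96 log2 (SD, n = 3). The remaining *Eng* and *Esam* were on neither side, and both passed above with the pooled spread. All 18 were lower in array 3 than in arrays 1 and 2, with a median difference of -0.95 log2. Among all probe sets with a mean of at least 100, 48.6% were lower in array 3 in the same way. Macrophage markers had the opposite pattern, with 13 of 17 higher in array 3 than in both other arrays and none lower, and with list means of 6.51, 7.37 and 7.85 log2. The share of all probe sets that were highest in array 3 was not counted. Of the 17, 3 (17.6%) passed above the level and 2 (11.8%) below it (9 and 3 with the pooled spread), beside the shares over all named genes given above. The 3 above were *Tyrobp* (9.48 ± 1.22), *Cx3cr1* (7.94 ± 0.44) and *Maf* (7.48 ± 0.06), and the 2 below were *Cd163* (4.96 ± 0.00) and *Itgam* (4.87 ± 0.17; SD, n = 3, all 5 named after their values were seen). *Adgre1* (6.26 ± 0.58), *Csf1r* (6.95 ± 0.48), *Cd68* (8.36 ± 0.92) and *Aif1* (8.54 ± 1.42) were on neither side (SD, n = 3), and the last pair passed above with the pooled spread. Array 3 also had the narrowest spread of values (SD 1.84 against 2.06 and 2.08 log2), and the medians of a background set of 1192 odorant and pheromone receptor genes were 4.67, 4.71 and 5.08 log2. The part of this narrower spread in the marker differences of array 3 was not tested. In a bulk sample, fewer cells of a type and less RNA per cell cannot be told apart.

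Promoter sequence is shown for 3 of the genes, and a link between sequence and level was not tested. *Igf1* is listed by the study among genes with a conserved ETS2 site upstream. *Igfbp1* and *Igfbp3* are direct neighbours in the RefSeq gene table of assembly GRCm38.p6. They were picked because their levels fell on opposite sides of the filter. Each line gives the 250 bases before the annotated start, 5′ to 3′ on the strand of the gene, from RefSeq on GRCm38.p6. Capitals mark TTCCTG (letters shared by ETS factor sites) in *Igf1*, where they are shorter than the ETS2 motif of the study, and CAAAACA (letters within the known insulin response element) in *Igfbp1*. The *Igfbp3* window holds none of the letters searched.
Igf1, chr10:87860861-87861110, plus strand: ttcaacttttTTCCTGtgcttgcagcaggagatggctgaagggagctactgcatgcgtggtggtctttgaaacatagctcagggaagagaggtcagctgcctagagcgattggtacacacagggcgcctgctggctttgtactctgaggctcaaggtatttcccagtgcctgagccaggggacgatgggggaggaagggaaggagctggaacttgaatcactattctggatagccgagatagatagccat
Igfbp1, chr11:7197537-7197786, plus strand: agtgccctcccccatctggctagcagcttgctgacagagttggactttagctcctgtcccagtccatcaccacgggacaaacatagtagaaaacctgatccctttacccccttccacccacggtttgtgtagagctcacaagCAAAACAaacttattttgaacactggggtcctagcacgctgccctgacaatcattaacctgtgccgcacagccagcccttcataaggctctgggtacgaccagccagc
Igfbp3, chr11:7213924-7214173, minus strand: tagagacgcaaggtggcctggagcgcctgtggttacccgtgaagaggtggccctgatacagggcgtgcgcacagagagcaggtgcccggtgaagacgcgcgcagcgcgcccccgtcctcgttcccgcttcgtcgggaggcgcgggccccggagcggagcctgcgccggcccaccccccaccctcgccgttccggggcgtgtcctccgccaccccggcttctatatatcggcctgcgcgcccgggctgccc

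The ligand gene stood well over the level in every array. *Igf1* measured 9.98, 9.98 and 9.60 log2 in arrays 1, 2 and 3, which is 1007, 1007 and 775 on the linear scale. The value was the same in arrays 1 and 2 and lower in array 3, by a difference of -0.38 log2, and no array came near the level. The mean of 9.85 ± 0.22 log2 (SD, n = 3) lay above the level (adjusted p = 0.00135, limma), 3.21 log2 units over it, with a 95% interval of 9.43 to 10.27. After quantile normalization of the arrays the difference of array 3 was -0.014 log2. *Igf1* is also known to be made by macrophages, whose markers are given above, and their part in its level was not tested.

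The receptor genes differed widely between the arrays. *Igf1r* measured 8.64, 8.20 and 6.81 log2 (398, 293 and 112 on the linear scale), so each array was over 100 but array 3 only just. Its mean of 7.88 ± 0.95 log2 (SD, n = 3) did not pass the test (adjusted p = 0.138, limma), and its 95% interval ran from 6.04 to 9.72, across the level. With the pooled spread *Igf1r* was above the level (adjusted p = 2.83e-05, limma).

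*Insr* was read by 2 probe sets that disagreed about the level. The first measured 9.59, 9.62 and 8.81 log2, a mean of 9.34 ± 0.46 (SD, n = 3), and lay above the level (adjusted p = 0.00778, limma). The second measured 7.47, 7.47 and 6.20 log2 and was under the level in array 3. Its mean of 7.05 ± 0.73 (SD, n = 3) did not pass (adjusted p = 0.443, limma), nor did it with the pooled spread (adjusted p = 0.204, limma). *Insr* therefore counts as above the level through its first probe set alone. Array 3 was the lowest array for both probe sets, at -0.79 and -1.27 log2 from the mean of arrays 1 and 2.

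**Figure D1:**
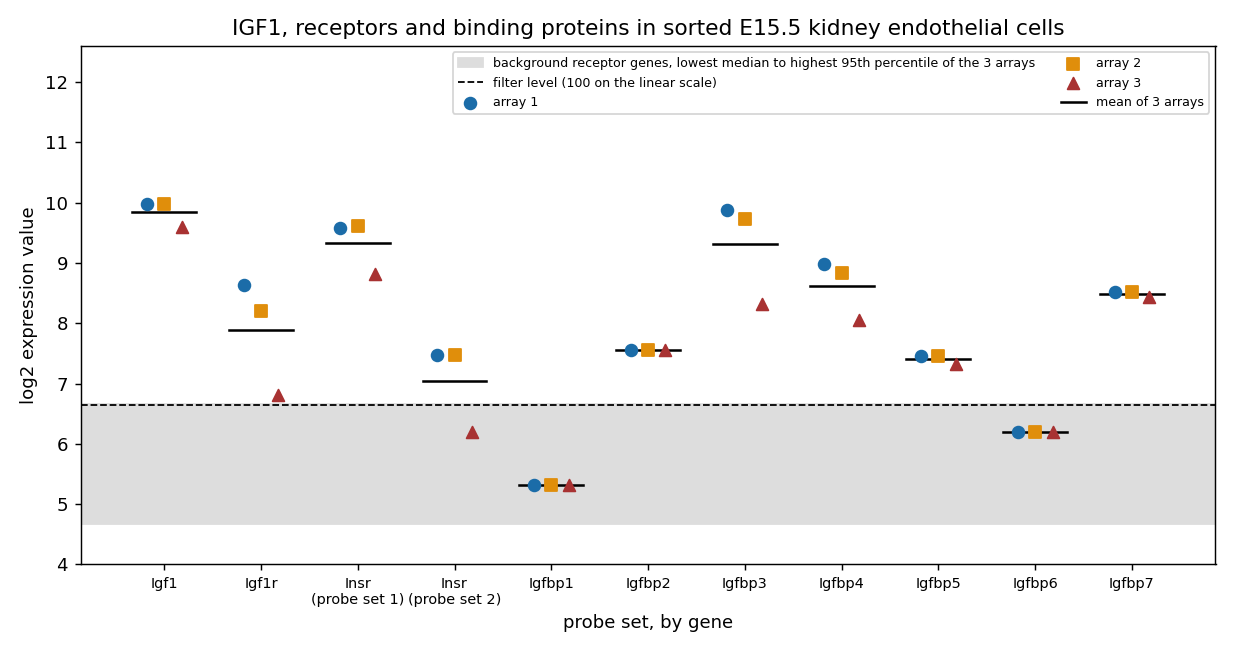
Log2 expression value (y axis) of the 11 probe sets of the IGF genes (x axis) in arrays 1, 2 and 3, with the mean as a bar. The filter level of 6.64 log2 is a dashed line, and a band of background receptor gene values, not their full range, is in grey. *Igf1* stands far over the level in every array, *Igfbp1* and *Igfbp6* lie in the grey band, and *Igf1r*, the second *Insr* probe set and *Igfbp3* spread most.

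Among the binding proteins, 5 of 7 were above the level and *Igfbp1* and *Igfbp6* were below it. The shares over all named genes were 41.6% above and 41.6% below. *Igfbp3*, the main carrier of IGF in blood, measured 9.88, 9.73 and 8.32 log2 (940, 847 and 319 on the linear scale). Arrays 1 and 2 lay close together and array 3 was at -1.48 log2 from their mean. The mean of 9.31 ± 0.86 log2 (SD, n = 3) lay above the level (adjusted p = 0.0273, limma), 2.66 log2 units over it.

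*Igfbp4*, known as an inhibitor of IGF action that PAPP-A cleaves, measured 8.98, 8.83 and 8.05 log2. All arrays were well over the level and array 3 was again the lowest. Its mean of 8.62 ± 0.50 log2 (SD, n = 3) was above the level (adjusted p = 0.0169, limma).

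*Igfbp7* encodes a relative of low IGF affinity that blood vessels are known to secrete. It measured 8.51, 8.51 and 8.44 log2, and the arrays barely differed. The mean of 8.49 ± 0.04 log2 (SD, n = 3) was above the level (adjusted p = 0.000165, limma), by 1.85 log2 units.

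*Igfbp2* and *Igfbp5* are direct neighbours in the gene table, and both were above the level by less than 1 log2 unit. *Igfbp2* had the same value of 7.56 log2 (188 on the linear scale) in all 3 arrays (adjusted p = 2.93e-05, limma). *Igfbp5*, which binds extracellular matrix, measured 7.45, 7.45 and 7.32 log2 with a mean of 7.41 ± 0.08 (SD, n = 3, adjusted p = 0.00275, limma). Both also passed with the pooled spread (adjusted p = 0.00226 and 0.0116, limma).

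*Igfbp1*, a binding protein known from liver whose transcription insulin lowers, was not above the filter in any array. It was at 5.32 log2 (40.1 on the linear scale) in every array, -1.32 log2 units from the level (adjusted p = 1.55e-05, limma). *Igfbp6*, which prefers IGF2 as its partner, was at 6.20 log2 (73.4 on the linear scale) in every array and was below the level as well (adjusted p = 7.36e-05, limma). With the pooled spread *Igfbp6* was on neither side (adjusted p = 0.137, limma), while *Igfbp1* was still below (adjusted p = 7.17e-06, limma). The values of *Igfbp1* and *Igfbp6* were within the range of the background receptor genes, whose 95th percentile was 6.28, 6.39 and 6.67 log2 in arrays 1, 2 and 3.

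Counted together, 7 of the 10 genes were above the level, 2 were below and *Igf1r* was on neither side. Of all named genes 41.6% were above and 41.6% below by the same test. With all 3 arrays on one side of 100 in place of the test, 8 of the 10 were above, *Igf1r* among them, and 2 below. At a level of 50, 9 were above and 1 below (71.4% and 13.1% of all genes), and at a level of 200, 3 were above and 4 below (16.2% and 66.6%). The median of the 10 genes was 8.04 log2, against 6.67 over all named genes. With the pooled spread 8 of the 10 were above and 1 below, where the shares over all genes were 36.0% and 32.5%. Without array 1, or without array 2, the count above was 4, since *Insr*, *Igfbp3* and *Igfbp4* no longer passed. The share of all named genes above fell as well, to 27.7% without array 1 and 25.3% without array 2, and the share below to 26.8% and 25.9%. Without array 3 the count was 7, where 40.3% of all genes were above and 45.6% below. In each of these fits 2 of the 10 were below.

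**Figure D2:**
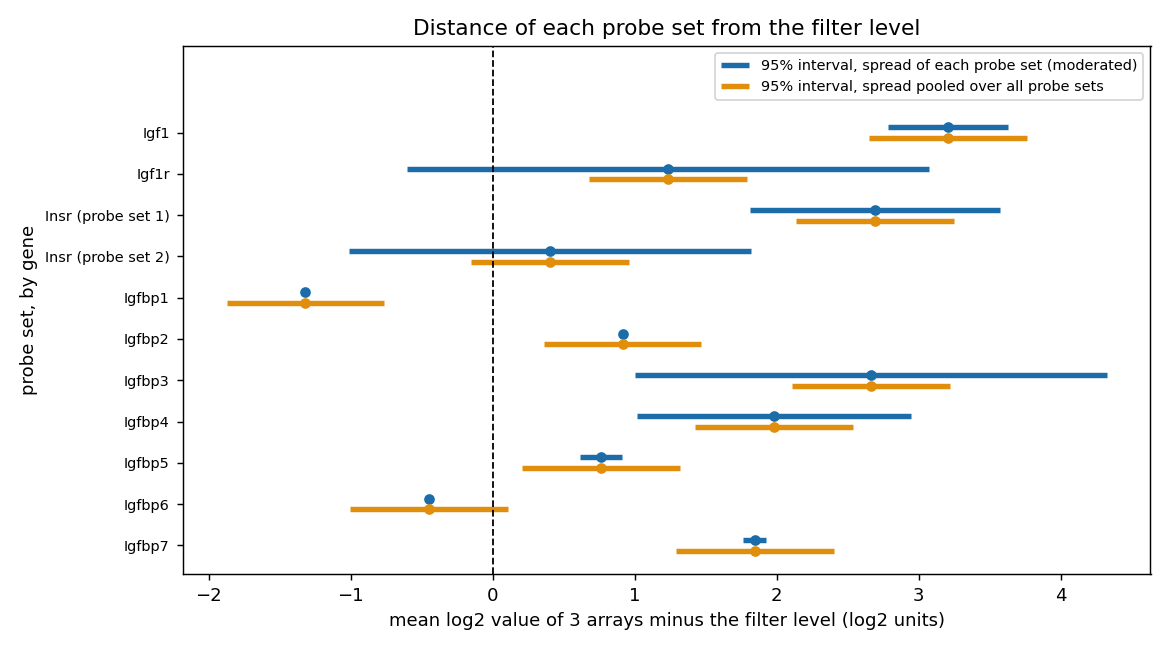
Mean log2 value minus the filter level (x axis, log2 units) for each probe set (y axis), with 95% intervals from the moderated spread of the probe set in blue and from the spread pooled over all probe sets in orange. The blue intervals of *Igf1r* and of the second *Insr* probe set cross the level at 0, those of *Igfbp1*, *Igfbp2* and *Igfbp6* are narrower than the points, and the orange interval of *Igfbp6* crosses 0.

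Several of these spreads rest on repeated values. Of the 11 probe sets, 3 had exactly the same value in all 3 arrays (*Igfbp1*, *Igfbp2* and *Igfbp6*), and 4 had the same value in arrays 1 and 2 and another in array 3. Over the whole table, 19.7% of probe sets had a single value in all arrays and 36.2% a value shared by exactly 2. An SD of 0 here is a property of the deposited numbers and not a measure of how far the pools differed, and the pooled spread of 0.49 log2 gives such genes wider intervals. For *Igfbp6* the 95% interval was 6.18 to 6.21 log2 with its own moderated spread and 5.64 to 6.75 with the pooled one.

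Array 3 was the lowest array for 8 of the 9 probe sets with a mean of at least 100, and for none of them the highest. The ninth, *Igfbp2*, did not vary. Among all probe sets with such a mean, 48.6% were lower in array 3 than in both other arrays. A difference of at least 1 log2 downward from the mean of arrays 1 and 2 was found for *Igf1r* (-1.60), *Igfbp3* (-1.48) and the second *Insr* probe set (-1.27), and for 11.8% of all probe sets with a mean of at least 100. After quantile normalization of the arrays, 6 of the 9 were lower in array 3 than the mean of arrays 1 and 2. *Igf1* was among them with a difference of only -0.014 log2. The 8 of 9 and the 48.6% asked for array 3 to be under both other arrays, so they cannot be compared with this count. The normalized differences of *Igf1r* and *Igfbp3* were -1.46 and -1.09 log2, and *Igfbp2*, *Igfbp5* and *Igfbp7* were higher in array 3 by 0.22, 0.044 and 0.33. The endothelial markers moved by -2.00 to -0.08 log2 in the deposited values, and the part of the lower endothelial and higher macrophage marker levels in these differences was not tested.

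**Figure D3:**
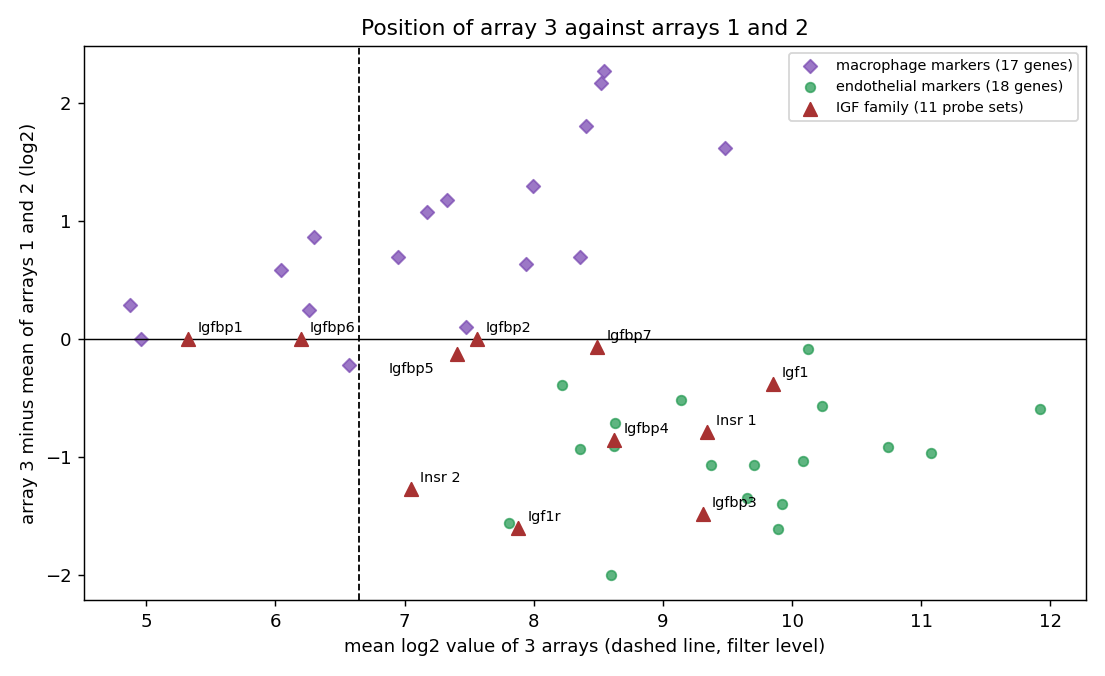
Value in array 3 minus the mean of arrays 1 and 2 (y axis, log2) against the mean of the 3 arrays (x axis, log2) for the IGF probe sets, endothelial markers and macrophage markers, with the filter level as a dashed line. *Igf1r* at -1.60 and *Igfbp3* at -1.48 lie among the endothelial markers, *Igf1* at -0.38 lies near their upper edge, and no IGF probe set lies over 0.

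The promoter windows differed in composition. RefSeq windows were found for 9 of the 10 genes, and *Insr* was the exception. GC content was highest for *Igf1r* (77.6%), *Igfbp7* (74.0%) and *Igfbp3* (73.2%), and lowest for *Igfbp6* (49.6%), *Igf1* (52.8%) and *Igfbp1* (53.2%), against a median of 52.4% over 32851 windows. CG pairs numbered 42 in the *Igf1r* window and 5 in each of the *Igf1* and *Igfbp1* windows. TTCCTG or its reverse complement was found in *Igf1*, from 240 to 235 bases before the start, and in *Igfbp6*, and 25.7% of all windows hold it. The ETS2 motif named by the study also asks for a purine and then a pyrimidine in front of these letters. It occurred on neither strand of the *Igf1* window, nor in that of any other of these genes, and 9.18% of all windows hold it. The study reports evolutionarily conserved sites in proximal promoter regions, which may reach beyond the windows used here. Conservation was not examined here, so the absence of these letters from the *Igf1* window does not test the site listed by the study. CAAAACA was found in *Igfbp1* alone, from 108 to 102 bases before the start, and in 5.56% of all windows on either strand. The GC box letters GGGCGG occurred in *Igf1r*, *Igfbp7* and 1 of the 2 *Igfbp2* windows (32.7% of all windows), and TATAAA in *Igfbp4* and *Igfbp6* (12.4%). Both strands were searched, the motifs do not overlap in the matches found, and a match is a description of letters and not a bound site.

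Other genes of the pathway were counted from lists of 84 measured genes, chosen with earlier results of these data known. Of the 84, 59 (70.2%) were above the level and 13 (15.5%) below, against 41.6% and 41.6% of all named genes. With the pooled spread 51 were above and 9 below, against 36.0% and 32.5%. At a level of 50, 78 were above and 1 below, against 71.4% and 13.1%. At a level of 200, 13 were above and 43 below, against 16.2% and 66.6%. Of 7 further ligand and surface receptor genes 2 were above and 3 below. *Igf2*, the second ligand, measured 11.60, 10.62 and 9.71 log2 and was above the level at 10.64 ± 0.95 (SD, n = 3, adjusted p = 0.0149, limma). *Igf2r*, which removes IGF2 from the cell surface, was above as well, at 9.85, 9.81 and 8.27 log2 (adjusted p = 0.0300, limma). *Insrr*, the orphan receptor of the family, was below at 5.87 ± 0.12 log2, and *Ins2*, an insulin gene, was at 6.53 ± 0.29 without passing (SD, n = 3). *Igf2* and *Igf2r* are imprinted genes.

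Of 12 genes of proteases that release IGF from binding proteins and of their inhibitors, 5 were above the level and 5 below (41.7% each), near the shares over all named genes. The protease genes *Pappa* and *Pappa2* were both below, at 5.99 ± 0.00 and 5.29 ± 0.18 log2. *Stc2*, an inhibitor of PAPP-A, was above at 7.10 ± 0.00, though not with the pooled spread, and *Stc1* at 6.94 ± 0.58 did not pass (SD, n = 3). Of 12 relatives with an IGFBP domain 8 (66.7%) were above and 2 (16.7%) below, against 41.6% and 41.6% of all named genes. With the pooled spread 6 of these relatives were above and 1 below, against 36.0% and 32.5%. The matricellular genes *Ccn1* (7.65 ± 0.00), *Ccn2* (7.37 ± 0.00), *Ccn3* (7.46 ± 0.20) and *Ccn4* (7.16 ± 0.21) were above, the last not with the pooled spread. *Kazald1* at 5.38 ± 0.00 and *Htra1* at 6.11 ± 0.01 were below (*Htra1*, which is on both lists, not with the pooled spread), and *Igfbpl1* (6.17 ± 0.35) and *Htra3* (6.72 ± 0.15) were on neither side (SD, n = 3).

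Inside the cell, 15 of 22 receptor adaptors and inhibitors (68.2%) were above the level and 4 (18.2%) were below (13 and 1 with the pooled spread). Of all named genes 41.6% were above and 41.6% below (36.0% and 32.5% with the pooled spread). The insulin receptor substrates lay near or under the level, with *Irs1* at 5.75 ± 0.00 and *Irs4* at 6.36 ± 0.00 log2 below the level and *Irs2* at 6.69 ± 0.06 on neither side (SD, n = 3). *Irs4* was not below with the pooled spread. The adaptor *Shc1* measured 8.81, 8.44 and 6.44 log2 and did not pass (adjusted p = 0.217, limma), though it was above with the pooled spread. Of 30 genes of PI3 kinase, AKT, mTOR and FoxO, 27 (90%) were above and none below (24 and none with the pooled spread). The PI3 kinase subunits *Pik3ca* (8.35 ± 0.29), *Pik3cb* (7.60 ± 0.06), *Pik3r1* (8.42 ± 0.33) and *Pik3r2* (6.86 ± 0.02) were above, the last not with the pooled spread. *Pik3r3* (8.74 ± 1.20), *Foxo4* (6.54 ± 0.27) and *Mlst8* (6.89 ± 0.26) were on neither side (SD, n = 3), and *Pik3r3* was above with the pooled spread. Both measured IGF2 mRNA binding protein genes were above, *Igf2bp1* at 8.05 ± 0.11 and *Igf2bp3* at 8.77 ± 0.49 log2 (SD, n = 3).

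**Figure D4:**
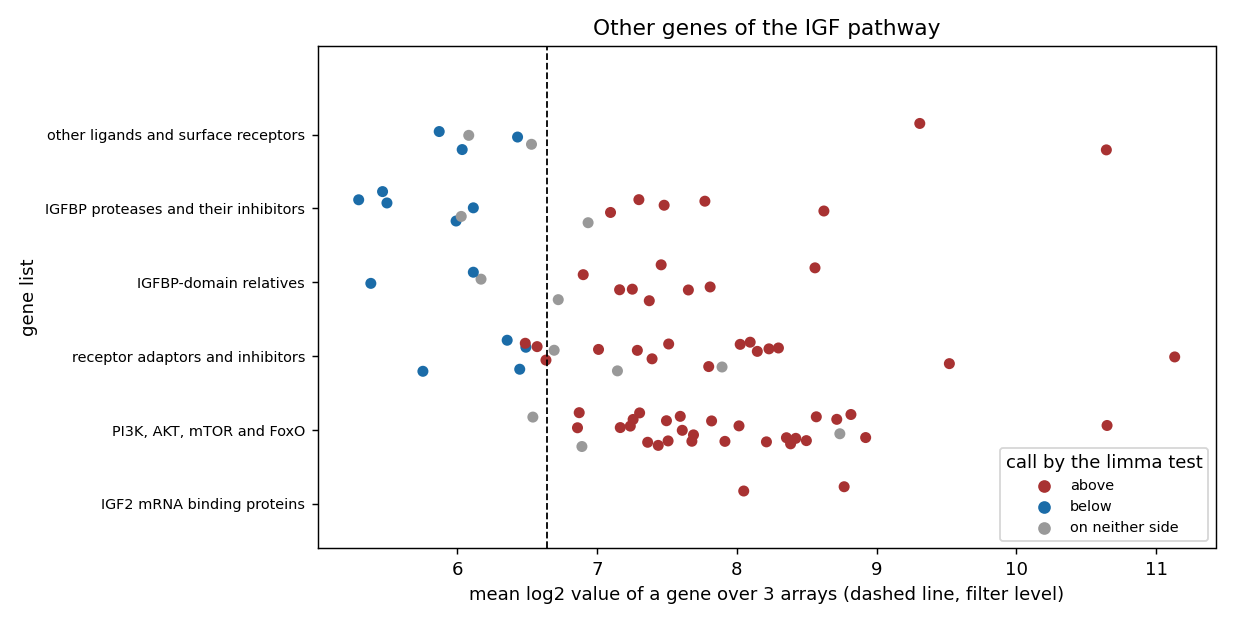
Mean log2 value over 3 arrays (x axis) of each measured gene of 6 lists (y axis), coloured by the limma call against the filter level (dashed line). The list of PI3K, AKT, mTOR and FoxO has 27 of 30 genes above and none below, and the list of proteases and their inhibitors has 5 above and 5 below. Of all named genes 41.6% were above and 41.6% below.

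Markers of other cell types that the sort could hold and that are known to use IGF genes were counted in the same way. Of 15 renal stroma and mural markers 7 were above the level and 7 below (3 and 4 with the pooled spread), with list means of 6.49, 6.51 and 6.66 log2 in arrays 1, 2 and 3. *Foxd1* was above at 7.87 ± 0.54 log2, *Meis1* at 6.97 ± 0.13 (not with the pooled spread), *Tbx18* was below at 5.00 ± 0.22, and *Pdgfra* at 6.41 ± 0.32 did not pass (SD, n = 3). Of 16 nephron and ureteric markers 4 were above and 8 below (2 and 5 with the pooled spread), with list means of 6.34, 6.25 and 6.32 log2. *Six2* (7.37 ± 0.12) and *Cited1* (7.28 ± 0.00) were above and *Eya1* (6.27 ± 0.00) and *Osr1* (5.93 ± 0.00) below (SD, n = 3), *Eya1* not with the pooled spread. Of 4 measured red cell markers 2 were above and 1 below (none and 1 with the pooled spread), with means of 6.60, 6.70 and 6.55 log2. *Epor* (6.86 ± 0.00) and *Slc4a1* (6.77 ± 0.01) were above, neither with the pooled spread, *Klf1* (5.71 ± 0.00) was below and *Alas2* (7.13 ± 0.32) did not pass (SD, n = 3). The shares above and below were 46.7% and 46.7% for the stroma list, 25% and 50% for the nephron list and 50% and 25% for the red cell list. Of all named genes 41.6% were above and 41.6% below (36.0% and 32.5% with the pooled spread). The presence of these cells in the sort was not tested. The range over the 3 arrays was 1.82 log2 for *Igf1r* and 1.56 for *Igfbp3*. The part of any of these cell types in the IGF values was not tested.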

How the data were processed

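RNA was purified, amplified once with a NuGEN WT-Pico kit and measured on Mouse Gene ST arrays of Affymetrix. The deposited log2 values were made by the authors with Affymetrix Expression Console (no version in the submitters' processing notes). Their summarization algorithm was not given in the sources used here, and the study names RMA in GeneSpring for its own analysis. The number of arrays limits the precision.

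The platform annotation gave exactly 1 symbol to 21789 of 35557 probe sets, and 21698 of these were matched by identifier to RefSeq genes of GRCm38.p6. A gene's value is the mean of its probe sets. An intercept-only limma 3.58.1 fit (R 4.3.3, eBayes) over all probe sets was tested one-sided against 100, Benjamini-Hochberg adjusted at 0.05, and checked on simulated data. Alternatives changed the spread, the level, the normalization, a filter on dim probe sets, the gene summary, the arrays and the test. The members and lists were chosen with earlier results of these data known. The text names all 10 members and, of each other list, the first 4 measured genes and any not above the level where these were 4 or fewer.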

Additional observations from a re-analysis of the deposited data

How the results depend on the processing

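The counts above and below the level kept within 1.5 times with quantile normalization, with a filter on dim probe sets, with the mean of the probe sets of a gene, with all arrays on one side of 100 in place of a test, and with the level at the 95th percentile of background receptor genes (86.2 on the linear scale). With the pooled spread 1 of the 10 genes was below the level instead of 2. At a level of 50, 1 of the 10 genes and 1 of the 84 pathway genes were below, and *Igfbp6* was above the level by 0.55 log2. At a level of 200, 3 of the 10 genes were above and 4 below, as were 13 and 43 of the pathway genes, and *Igfbp2* and *Igfbp5* turned to below, at -0.085 and -0.24 log2 from it. The shares of all named genes above and below moved with the level too, and are given beside the counts of the 10 genes. Leaving out each array in turn gave 4 to 7 of the 10 genes above, 30 to 54 pathway genes above and 8 to 16 below. The lowest count above in the pathway came without array 2, and the fits without an array have fewer samples. *Igf1*, *Igfbp1* and *Igfbp7* kept their call in all 11 alternatives. *Igf1r* was above the level in 3 of them, with the pooled spread, at a level of 50, and with all arrays on one side of 100. No paired analysis was possible because the series holds a single group.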

Other observations

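Some pathway genes outside the naming rule, chosen after their values were seen, differed widely between arrays. *Grb10*, an imprinted adaptor that inhibits the insulin and IGF1 receptors, measured 10.39, 9.99 and 8.18 log2 in arrays 1, 2 and 3 and was above the level at 9.52 ± 1.17 (SD, n = 3, adjusted p = 0.0430, limma). *Akt2* measured 7.98, 8.04 and 6.47 log2 as the mean of 2 probe sets. Other genes had the same value in every array, among them *Foxo1*, a transcription factor that AKT holds out of the nucleus, at 8.82 log2, *Akt1* at 7.82 and *Grb2* at 8.15. The ubiquitin ligase gene *Nedd4*, which is known to act with *Grb10* on IGF1 receptor levels, was above the level at 11.56, 11.16 and 10.67 log2 (adjusted p = 0.00279, limma). *Ptpn2*, *Socs2* and *Socs3*, inhibitors of receptor signalling counted as above the level, had means under it (6.57, 6.49 and 6.63 log2), since each was read by 2 probe sets of which at least 1 was above.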
